A study of Mus musculus with 22 samples.

Results

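The circadian clock genes measured here were Arntl (also called Bmal1), Clock, Npas2, Per1, Per2, Per3, Cry1, Nr1d1, Nr1d2 and Dbp, and their transcripts were followed in the aortas of ovariectomised female mice. Their probe sets were all those of the array whose single gene symbol in the platform annotation was one of these names, which gave 24 of 45101 probe sets and 10 of the 18194 genes that have such a probe set. No probe set of these genes was shared with another symbol. The mice were of strain C57BL/6 and of 3 genotypes, namely wild type (WT), estrogen receptor alpha knockout (ERaKO) and estrogen receptor beta knockout (ERbKO), with WT mice taken from the knockouts' littermates. Each mouse was 2.5 to 4.5 months old and carried a pellet of 17beta-estradiol (E2) or of placebo for 7 to 8 days before the aorta was taken. The 22 arrays, each made from 5 ug of total RNA of a separate aorta, form the groups WT placebo (n = 5), WT E2 (n = 5), ERaKO placebo (n = 3), ERaKO E2 (n = 3), ERbKO placebo (n = 3) and ERbKO E2 (n = 3). All mice, controls included, lacked ovaries, so placebo means a mouse without ovarian estrogen. The alleles of the knockouts and the time of day at which each aorta was taken are not given in the sources used here.

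The clock is a feedback loop that runs in most cells, vascular smooth muscle and endothelium included. The proteins ARNTL and CLOCK, or ARNTL and NPAS2 in its place, bind E-box sequences and switch on the Per, Cry, Nr1d and Dbp genes. PER and CRY proteins then hold their activators back, the nuclear receptors NR1D1 and NR1D2 (REV-ERB alpha and beta) repress Arntl and Npas2 through ROR elements, and DBP switches on genes through D-box elements. The transcripts therefore rise and fall over the day, with Arntl and Npas2 far out of step with Dbp and Nr1d1.

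The promoters of 4 of these genes are shown because each holds, in the window from 250 bases before to 50 bases after the start of transcription, an element through which the loop is known to act. The sequences are those of RefSeq on build GRCm38.p6, 5′ to 3′ on the strand of the gene, and the capitals mark the element. A window was found for 9 of the 10 genes, in 13 entries, since some genes have more than 1 start; Per2 had none in the table used.
Cry1 (chr10:85185005-85185304, minus strand): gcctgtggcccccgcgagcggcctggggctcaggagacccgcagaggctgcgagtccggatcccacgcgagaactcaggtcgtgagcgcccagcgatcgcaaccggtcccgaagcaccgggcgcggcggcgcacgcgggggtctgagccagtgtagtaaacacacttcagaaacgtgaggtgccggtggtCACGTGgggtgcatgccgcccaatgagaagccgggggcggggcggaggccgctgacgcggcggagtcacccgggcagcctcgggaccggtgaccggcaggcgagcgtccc
Per1 (chr11:69098699-69098998, plus strand): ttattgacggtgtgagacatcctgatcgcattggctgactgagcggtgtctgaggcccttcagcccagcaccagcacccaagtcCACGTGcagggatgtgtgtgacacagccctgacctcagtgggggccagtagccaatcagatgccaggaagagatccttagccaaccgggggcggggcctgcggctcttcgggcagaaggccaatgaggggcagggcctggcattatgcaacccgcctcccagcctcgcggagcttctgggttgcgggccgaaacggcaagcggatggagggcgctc
Per3 (chr4:151044616-151044915, minus strand): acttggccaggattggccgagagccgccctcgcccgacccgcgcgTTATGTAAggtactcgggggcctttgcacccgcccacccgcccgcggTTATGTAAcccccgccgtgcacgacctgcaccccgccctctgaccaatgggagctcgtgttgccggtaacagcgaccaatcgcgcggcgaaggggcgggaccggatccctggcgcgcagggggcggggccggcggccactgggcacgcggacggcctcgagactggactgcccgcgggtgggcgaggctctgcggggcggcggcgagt
Arntl (chr7:113207261-113207560, plus strand): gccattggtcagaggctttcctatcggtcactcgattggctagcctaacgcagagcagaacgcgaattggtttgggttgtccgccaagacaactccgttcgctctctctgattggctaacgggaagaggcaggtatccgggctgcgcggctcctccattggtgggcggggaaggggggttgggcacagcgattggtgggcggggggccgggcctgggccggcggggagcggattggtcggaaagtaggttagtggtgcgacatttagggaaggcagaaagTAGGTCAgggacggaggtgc
Both strands were searched for each element, counting the start of transcription as position 1. The E-box CACGTG begins at position -60 of Cry1 and at -166 of Per1, and 7.15% of all 32851 promoter entries hold it. A D-box was searched as TTATGTAA or TTACGTAA. Per3 holds TTATGTAA at -205 and again at -158, against 1.06% of all entries with any D-box. The core of the ROR element, searched as TAGGTCA or TGGGTCA, begins at position 31 of 1 of the Arntl entries, and 6.45% of all entries hold it. The palindromic estrogen response element, with any 3 bases between its arms, was in none of the 13 entries and in 0.07% of all entries. These are matches of letters in a short window and say nothing of binding in the aorta.

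Array values are on the log2 scale and are called signal here; a difference of 1 is a 2-fold difference. Median signal of an array lay between 3.26 and 3.50, and between 18507 and 19384 probe sets exceeded a log2 signal of 4. Esr1, the gene deleted in ERaKO, had a signal of 8.52 ± 0.31 (SD, n = 5) in WT placebo, 5.03 ± 0.71 (n = 3) in ERaKO placebo and 4.76 ± 1.10 (n = 3) in ERaKO E2. Esr2, the gene deleted in ERbKO, was at background on all 22 arrays, with a highest signal of 2.72, so it checks no label. The 6 smooth muscle markers were all measured, with array means between 11.27 and 12.71. Markers of fat lying on the vessel were also high. The mean of 6 brown adipocyte markers was 11.12 ± 0.74 in WT placebo and 10.13 ± 0.54 in WT E2 (SD, n = 5 each), 11.42 ± 0.16 and 10.10 ± 0.93 in ERaKO and 10.49 ± 0.96 and 10.13 ± 0.90 in ERbKO (n = 3 each), and these differences were not tested. In whole aortas, fewer cells of a type and less RNA per cell cannot be told apart.

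Of the 24 probe sets, 20 had a signal over 4 on at least 3 arrays and were tested, and these cover all 10 genes. The 4 others belong to Arntl, Npas2 and Per3, each of which has another tested probe set. For each gene the probe set with the highest mean over the 22 arrays is described. Levels of different probe sets were not compared with each other, since their brightness depends on the probes.

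Among the activators, Arntl stood near background on most arrays and well above it on a few. Its signal on WT placebo arrays 1 to 5 was 4.33, 6.85, 2.95, 2.97 and 3.72, and on WT E2 arrays 1 to 5 it was 2.89, 3.65, 2.93, 4.93 and 7.01. In ERaKO placebo it was 5.25, 2.97 and 2.94, and in ERaKO E2 it was 3.23, 2.93 and 3.03. All 6 ERbKO arrays lay between 2.89 and 3.00. Arntl was thus over 4 on 5 arrays only, namely WT placebo 1 and 2, WT E2 4 and 5 and ERaKO placebo 1. Both treatments and 2 of the 3 genotypes are among these arrays, and every group that holds them also holds arrays at background.

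Npas2, the partner that can take the place of CLOCK, was high on nearly the same arrays. Its signal was 4.87, 7.69, 4.16, 5.88 and 7.70 on WT placebo arrays 1 to 5, and 3.99, 5.47, 4.11, 7.41 and 7.26 on WT E2 arrays 1 to 5. ERaKO placebo gave 6.55, 4.17 and 4.47 and ERaKO E2 gave 4.98, 5.07 and 4.14, while the 6 ERbKO arrays lay from 4.0 to 4.27. The WT groups therefore spanned the whole range of this gene, and the ERbKO arrays were near its low end, overlapping both WT groups. Low arrays of the WT and ERaKO groups stopped at about the same signal (3.99, 4.11, 4.14, 4.16 and 4.17). Values near 4 may thus be background for this probe set and hold no order. Of the 5 arrays with Arntl over 4, 4 were among the 5 highest for Npas2.

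Clock, the other activator, was measured on every array, between 7.05 on WT E2 3 and 9.06 on WT placebo 2. Its group means ran from 7.52 ± 0.48 (SD, n = 3) in ERbKO placebo to 8.09 ± 0.79 (n = 5) in WT placebo, and all groups overlapped. The 5 arrays with Arntl over 4 included 3 of the 5 highest for Clock.

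Dbp, the output gene that encodes a D-box activator, varied in the opposite sense. On WT placebo arrays 1 to 5 its signal was 9.88, 7.47, 11.95, 10.09 and 10.11, and on WT E2 arrays 1 to 5 it was 11.85, 11.14, 12.41, 9.71 and 7.54. ERaKO placebo gave 8.22, 12.25 and 12.16, ERaKO E2 gave 10.53, 12.05 and 11.79, ERbKO placebo gave 11.57, 11.99 and 11.65, and ERbKO E2 gave 11.70, 10.92 and 11.15. The 5 arrays with Arntl over 4 were exactly the 5 lowest for Dbp, at 9.88 or less, and the other 17 arrays were at 10.09 or more. The span from WT placebo 2 to WT E2 3 is 30.6-fold. A second probe set of Dbp followed the first closely across arrays, with a correlation of 0.99 once group means were removed.

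**Figure D1:**
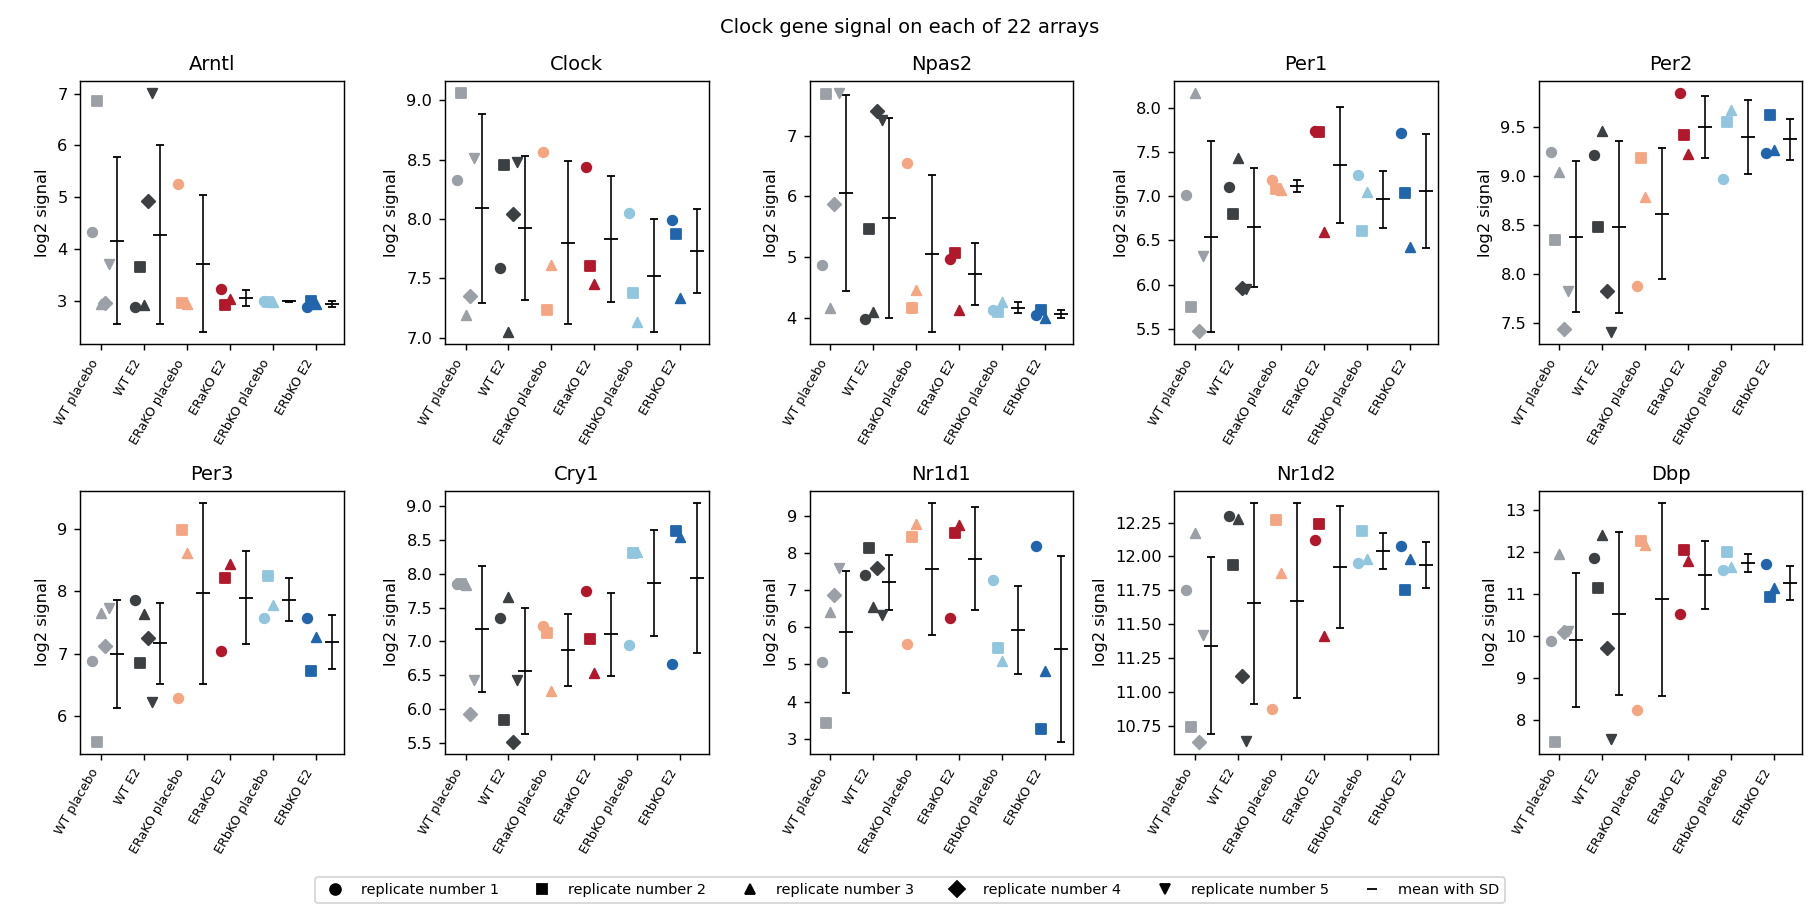
Log2 signal (y axis) of each of the 10 clock genes on the 22 arrays, by group (x axis), with the replicate number as the marker shape and the group mean with its SD beside the points. Arntl exceeds 4 on 5 arrays of 3 groups, the same arrays on which Dbp is lowest, and the ERbKO arrays of Arntl and Npas2 lie close together.

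The Nr1d genes, the nuclear receptor arm, did not follow a single pattern. Nr1d1 ran from 3.27 on ERbKO E2 2 to 8.79 on ERaKO placebo 3, and it was over 4 on 20 of the 22 arrays. No fold is given for this span, since the arrays ERbKO E2 2 and WT placebo 2 are near background. Its signal on WT placebo arrays 1 to 5 was 5.06, 3.43, 6.40, 6.88 and 7.59, and on WT E2 arrays 1 to 5 it was 7.41, 8.14, 6.56, 7.60 and 6.33. ERaKO placebo gave 5.54, 8.42 and 8.79, and ERaKO E2 gave 6.26, 8.55 and 8.75. ERbKO placebo gave 7.27, 5.44 and 5.08, and ERbKO E2 gave 8.18, 3.27 and 4.82. In both knockouts the arrays numbered 2 and 3 stood apart from number 1 under either treatment, above it in ERaKO and below it in ERbKO. Of the 5 arrays with Arntl over 4, 2 were among the 5 lowest for Nr1d1. Nr1d2, on its brightest probe set, kept within 10.63 to 12.30, a 3.2-fold span, and 4 of the 5 arrays with Arntl over 4 were among its 5 lowest. Its other tested probe set ran wider, from 2.92, near background, to 6.77.

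Cry1, a repressor of the loop, ran against Nr1d1. Its signal was 7.85, 7.85, 7.84, 5.92 and 6.43 on WT placebo arrays 1 to 5 and 7.35, 5.83, 7.66, 5.51 and 6.43 on WT E2 arrays 1 to 5. ERaKO placebo gave 7.22, 7.13 and 6.26, and ERaKO E2 gave 7.75, 7.03 and 6.53. ERbKO placebo gave 6.95, 8.31 and 8.33, and ERbKO E2 gave 6.66, 8.63 and 8.54. The 4 highest arrays were numbers 2 and 3 of both ERbKO groups, the arrays with low Nr1d1, and number 1 was the lowest of each of these groups. Of the 5 arrays with Arntl over 4, 1 was among the 5 highest for Cry1.

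The Per genes encode the partners of CRY. Per2 measured 9.25, 8.35, 9.04, 7.44 and 7.82 on WT placebo arrays 1 to 5 and 9.22, 8.48, 9.46, 7.82 and 7.40 on WT E2 arrays 1 to 5. ERaKO placebo gave 7.88, 9.18 and 8.79, and ERaKO E2 gave 9.85, 9.42 and 9.23, while the 6 ERbKO arrays lay between 8.97 and 9.68. The 4 lowest arrays for Per2 were thus WT arrays 4 and 5 of both treatments, and all 4 were also among the 5 lowest for Per1. Per1 ranged from 5.47 on WT placebo 4 to 8.17 on WT placebo 3, and Per3 from 5.59 on WT placebo 2 to 8.98 on ERaKO placebo 2. Per3 was low on 3 of the 5 arrays with Arntl over 4, counted among its 5 lowest.

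The group means of each gene were put in order, and neighbours in that order were compared. Over the 10 genes there were 50 pairs of groups next to each other in that order, and in 5 the gap exceeded the larger SD of the pair. In 1 of the 50, Per2 in ERbKO E2 (9.38 ± 0.21, n = 3) above ERaKO placebo (8.62 ± 0.67, n = 3), no array overlapped. Neighbours in such an order are close by construction, and the same counts over all tested probe sets are not given. These counts are therefore no result about the clock genes. For Dbp the order ran from ERbKO placebo (11.74 ± 0.22) over ERaKO E2 (11.46 ± 0.81), ERbKO E2 (11.26 ± 0.40), ERaKO placebo (10.88 ± 2.30) and WT E2 (10.53 ± 1.96) to WT placebo (9.90 ± 1.60), and no neighbours differed beyond their spread. The group means of Arntl are counted among the 50, but their order is not described, since its values near 3 are background. Arntl was over 4 on 2 of 5 arrays in WT placebo and in WT E2, on 1 of 3 in ERaKO placebo and on none in the other groups.

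The spread between mice of the same group was wide for these genes. The residual SD of a probe set, that is its spread between arrays once group means are removed, had a median of 0.84 over the 10 genes and of 0.36 over all 20410 tested probe sets. It was 1.55 for Nr1d1 and 1.54 for Dbp, which stood 47th and 48th of the 20410. Arntl (1.27) and Npas2 (1.25) stood 111th and 117th, so 4 of the 10 genes lay in the top 1% of all probe sets. Cry1 (0.87) and Per3 (0.81) lay in the top 5%. Per1 (0.73), Per2 (0.66), Clock (0.62) and Nr1d2 (0.59) completed the list, and all 10 lay in the top 20%. The other tested probe set of Nr1d2 had a residual SD of 1.13, at rank 201 of the 20410. The values of Arntl and Nr1d1 include arrays at background, and those of Npas2 may. A wide residual SD widens every interval given below.

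**Figure D2:**
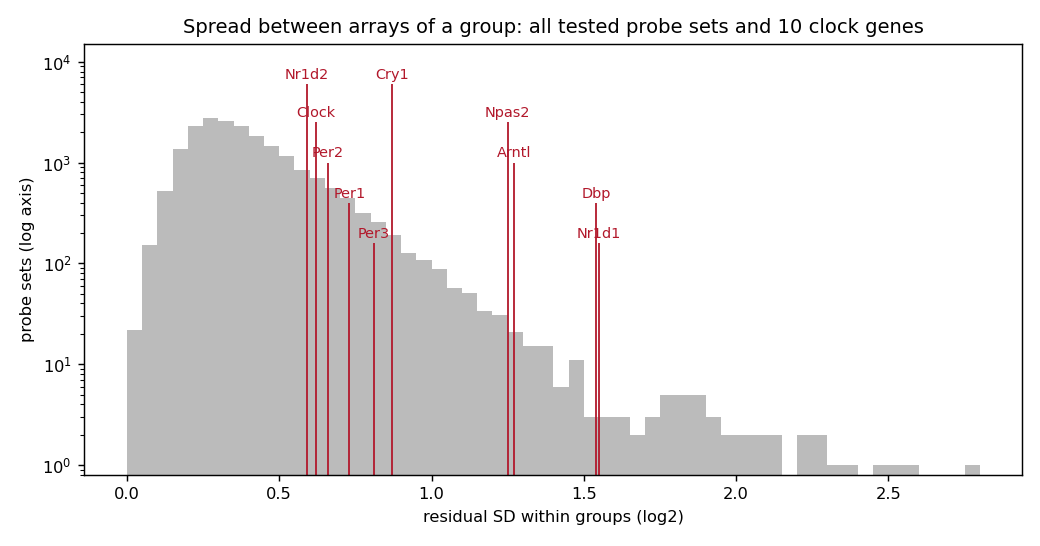
Number of tested probe sets (y axis, log scale) by residual SD within groups in log2 units (x axis), with the 10 clock genes marked by lines. Dbp and Nr1d1 lie beyond 1.5, in the thin right tail, and all 10 genes lie to the right of the median of 0.36.

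The first question of the design was what E2 did in WT aortas. No clock gene was called there by limma at an adjusted p under 0.05, where 0.387% of all tested probe sets were called. Nr1d1 had the widest difference, 1.34 ± 0.90 (E2 minus placebo, SE), with a 95% interval from -0.54 to 3.22 and an adjusted p of 0.75. It was 0.73 (adjusted p = 0.89) without WT placebo 2, the array near background, and 2.16 (adjusted p = 0.36) with array weights. The E2 mean was 7.21 ± 0.75 (SD, n = 5) and the placebo mean 5.87 ± 1.65, and the arrays overlapped. Within WT pairs of equal replicate number, Nr1d1 was higher with E2 by 2.35, 4.70, 0.16 and 0.72 in numbers 1 to 4, and the difference was -1.26 in number 5. The 4.70 is measured from a placebo signal of 3.43, near background. With a replicate block within genotype the SE of Nr1d1 was 0.68, the unadjusted limma p 0.072 and the adjusted p 0.35. Dbp differed by 0.63 ± 0.89 (interval -1.23 to 2.49) and Cry1 by -0.62 ± 0.51 (-1.68 to 0.44). Leaving out a single array placed the difference of Dbp between 0.02 (without WT placebo 2) and 1.38 (without WT E2 5), and that of Cry1 between -0.94 (without WT placebo 4) and -0.36 (without WT E2 4). The within-pair differences of Cry1 were -0.50, -2.02, -0.18, -0.41 and 0.00 in numbers 1 to 5, so no pair was higher with E2. With a replicate block within genotype its SE was 0.24, the unadjusted limma p 0.026 and the adjusted p 0.22. Per2 differed by 0.10 ± 0.39 and Per1 by 0.11 ± 0.43. The median difference over the 10 genes was 0.11, beside 0.013 over all tested probe sets.

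E2 was also without a call among these genes in ERaKO, where 0.0049% of all probe sets were called, and in ERbKO, where 0.098% were. Per2 in ERaKO was the single case in which the arrays of the compared groups did not overlap, at 7.88, 9.18 and 8.79 with placebo and 9.85, 9.42 and 9.23 with E2. The difference was 0.88 ± 0.50 (interval -0.17 to 1.93), with a limma adjusted p of 0.78. It was 0.51 without ERaKO placebo 1 and 0.48 for the mean of the tested probe sets of Per2. Within ERaKO pairs of equal number, Per2 was higher with E2 by 1.97, 0.23 and 0.44 in numbers 1 to 3. With a replicate block the unadjusted limma p was 0.022 and the adjusted p 0.35. With a replicate block within genotype the SE was 0.29, the unadjusted limma p 0.011 and the adjusted p 0.16. Of all tested probe sets, 12.7% had groups that did not overlap in this comparison, as did 8.03% over all 9 comparisons of groups together. In ERbKO the widest difference was that of Per3, -0.68 ± 0.62 (-1.96 to 0.61), or -0.45 without ERbKO E2 2 and -0.39 for the mean of its probe sets, and the adjusted p of all 10 genes was 1. Whether E2 acted differently in a knockout than in WT was tested by the interaction term. It called no clock gene in ERaKO or in ERbKO, where 0.0686% and 0% of all probe sets were called. The widest interaction was that of Nr1d1 in ERbKO, -1.84 ± 1.47 (interval -4.91 to 1.23), which was -0.77 without ERbKO E2 2, -1.17 without ERbKO placebo 1 and -3.22 without ERbKO E2 1.

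The knockouts were next compared with WT under the same pellet. With placebo, 0.0049% of all probe sets were called in either knockout and no clock gene was. In ERbKO, Npas2 differed from WT by -1.89 ± 0.84 (interval -3.64 to -0.13), Dbp by 1.84 ± 1.03 (-0.31 to 3.99) and Per2 by 1.02 ± 0.45 (0.08 to 1.96). The ERbKO signals of Npas2 may be at background, so the size of its difference is uncertain. For Npas2 and Per2 the unadjusted limma p was 0.036 and 0.035 and the adjusted p 0.99 for both. With a replicate block these differences were -1.08 ± 0.69 (unadjusted p = 0.14) for Npas2 and 0.48 ± 0.33 (unadjusted p = 0.16) for Per2, so neither interval leaves out 0 in that fit. That block ties equal numbers across genotypes, though the pairing was checked only within a genotype. Only WT has numbers 4 and 5, so any such fit compares a knockout with WT largely through numbers 1 to 3. With numbers 1 to 3 only, Per2 differed by 0.52. No difference is given for Arntl, which was at background on all ERbKO arrays and over 4 on 2 of the 5 WT placebo arrays. In ERaKO, Nr1d1 differed from WT by 1.71 ± 1.04 (-0.46 to 3.88) and Per3 by 0.96 ± 0.55 (-0.19 to 2.12). Leaving out a single array gave 1.10 to 2.73 for Nr1d1, the lowest without WT placebo 2, and 0.46 to 1.80 for Per3, the lowest without ERaKO placebo 2, and both were highest without ERaKO placebo 1.

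With E2, 0.24% of all probe sets were called in ERaKO against WT and 0.0049% in ERbKO against WT, again with no clock gene among them. Per2 was 9.50 ± 0.32 (SD, n = 3) in ERaKO and 8.48 ± 0.88 (n = 5) in WT, a difference of 1.02 ± 0.45 with an unadjusted limma p of 0.035 and an adjusted p of 0.59. With a replicate block it was 0.48 ± 0.33 (unadjusted p = 0.16). Cry1 was 7.94 ± 1.11 (n = 3) in ERbKO and 6.56 ± 0.93 (n = 5) in WT, a difference of 1.39 ± 0.58 (interval 0.17 to 2.61) with an unadjusted p of 0.028 and an adjusted p of 0.86. With a replicate block it was 0.86 ± 0.54 (unadjusted p = 0.13). Nr1d1, at 5.43 ± 2.51 in ERbKO and 7.21 ± 0.75 in WT, differed by -1.78 ± 1.04 (-3.95 to 0.39), or by -0.71 without ERbKO E2 2, the array at background, and -3.16 without ERbKO E2 1. The knockouts compared with each other gave no call either, where 0.0343% of all probe sets were called with placebo and 0.23% with E2. There Nr1d1 with E2 had the widest difference, 7.85 ± 1.38 in ERaKO and 5.43 ± 2.51 in ERbKO, a difference of 2.43 ± 1.16 with an adjusted p of 0.45, or 1.35 without ERbKO E2 2 and 3.81 without ERbKO E2 1. These comparisons share groups of arrays, so they are not separate observations of a gene.

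Over the 10 genes and the 11 contrasts, limma made 0 calls among 110 values. An unadjusted p under 0.05 was reached by 5 of the 110, or 4.55%, and over all tested probe sets and the same contrasts by 5.75%. The widths of the intervals set what could be seen. For E2 in WT, in the fit without a block, they ran from -1.23 to 2.49 for Dbp and from -0.94 to 0.60 for Clock, a gene of narrower spread. With a replicate block within genotype, the SE was 0.69 in place of 0.89 for Dbp and 0.19 in place of 0.37 for Clock.

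**Figure D3:**
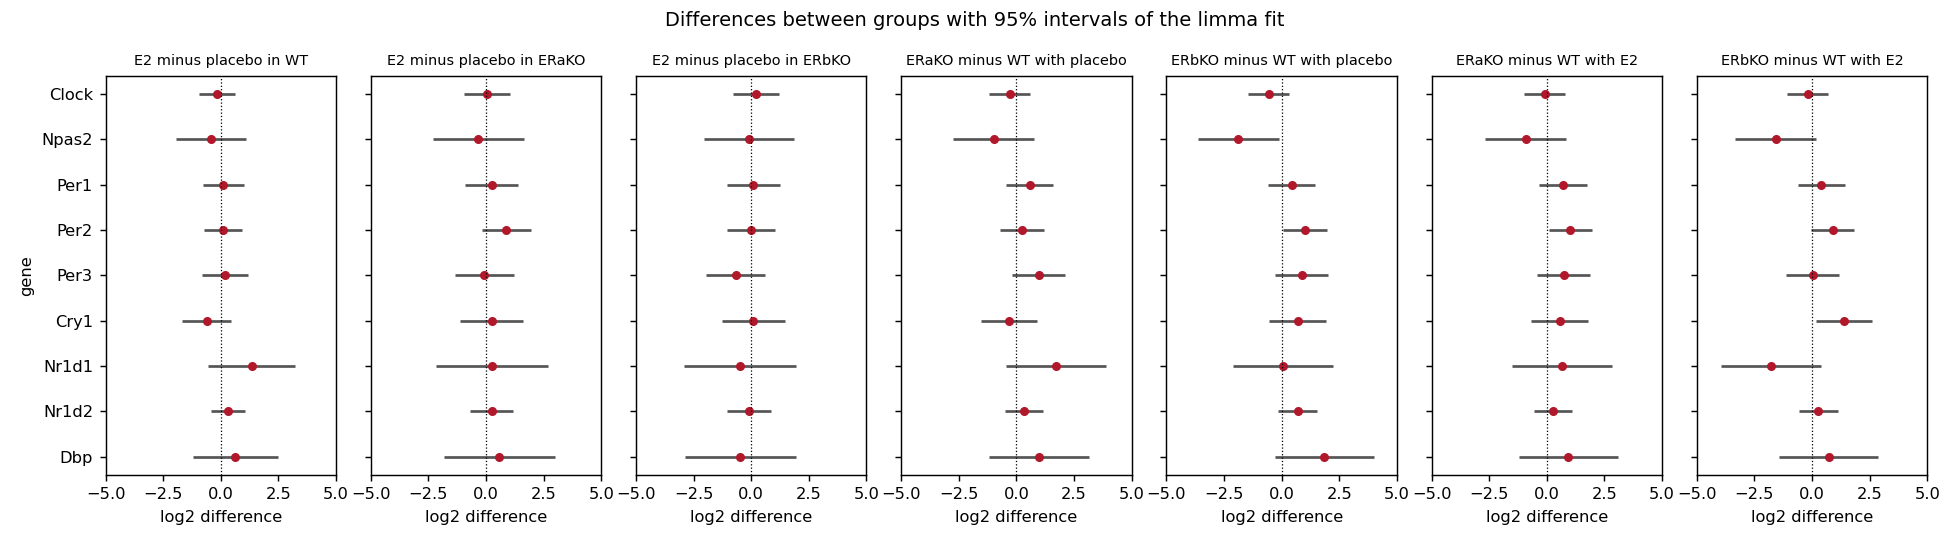
Log2 difference between groups (x axis) with the 95% interval of the limma fit for 9 clock genes, without Arntl (y axis), in 7 contrasts. The intervals of Nr1d1, Dbp and Npas2 are the wide ones, and those of Npas2 and Per2 in ERbKO with placebo, Per2 in ERaKO with E2 and Cry1 in ERbKO with E2 leave out 0 in this fit, which has no replicate block.

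The design also allows the genes to be followed across single mice, and many of them moved together. The pairwise correlation was taken over the 22 arrays once each group's mean was removed, with two-sided p-values from 100000 permutations of arrays within groups, adjusted by Benjamini-Hochberg over the 45 pairs of genes. An adjusted p under 0.05 was reached by 25 pairs, of which 14 were positive and 11 negative. Arntl takes part in 6 of these. Arntl was at 4 or less on 17 arrays, most of these at background, and high on 5. Its r values are therefore not given, and of the 36 pairs without it 19 were under the threshold. A correlation of size 0.7 or more was found in 12 of these 36 pairs, or 33.3%, and in 3.33% of all pairs of 10260 tested genes.

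The activators stood against the output gene. The low signals of Npas2, those of the ERbKO arrays included, may be background and hold no order. Its r and rho are given, but they may rest largely on the other arrays. Npas2 and Dbp had r = -0.82 (permutation p = 0.00076, adjusted p = 0.0049) and rho = -0.76 (permutation p = 0.0025, adjusted p = 0.011), and r = -0.80 without the 2 arrays farthest from the median of Npas2. Clock and Dbp had r = -0.76 (permutation p = 0.00062, adjusted p = 0.0049) and rho = -0.68 (permutation p = 0.0034), and r = -0.67 without the 2 farthest arrays. Clock and Npas2 went together, with r = 0.70 (permutation p = 0.0074, adjusted p = 0.017) and rho = 0.63 (permutation p = 0.012), and r = 0.60 without the 2 farthest.

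Other targets of the loop went with Dbp. Per3 and Dbp had r = 0.88 (permutation p = 0.00025, adjusted p = 0.0048) and rho = 0.82 (permutation p = 0.00044), and r = 0.75 without the 2 farthest arrays. For Nr1d2 and Dbp r was 0.83 (permutation p = 0.0012, adjusted p = 0.0051) and rho 0.82 (permutation p = 0.0016), and r was 0.69 without the 2 farthest. Per2 and Nr1d2 gave r = 0.84 (permutation p = 0.00073, adjusted p = 0.0049) and rho = 0.82 (permutation p = 0.00089), and r = 0.79 without the 2 farthest. Nr1d1 and Dbp were tied more loosely, at r = 0.56 (permutation p = 0.0052, adjusted p = 0.017) and rho = 0.54 (permutation p = 0.013), and r = 0.50 without the 2 farthest.

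Of the 8 genes paired with Dbp here, 7 passed the test on r and Cry1 did not. The share of all tested genes that would pass this test with Dbp is not given. Per1 and Per2 passed narrowly on r (adjusted permutation p = 0.045 and 0.049) and not on rho (adjusted permutation p = 0.093 and 0.078). With Dbp, Cry1 had r = 0.02 (permutation p = 0.94) and rho = 0.07 (permutation p = 0.78). With Nr1d1, whose protein is a known repressor of Cry1, it had r = -0.74 (permutation p = 0.00063, adjusted p = 0.0049) and rho = -0.73 (permutation p = 0.00066), and r = -0.65 without the 2 farthest arrays. It went with Per2, at r = 0.67 (permutation p = 0.0043, adjusted p = 0.015) and rho = 0.74 (permutation p = 0.0013), and r = 0.69 without the 2 farthest.

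**Figure D4:**
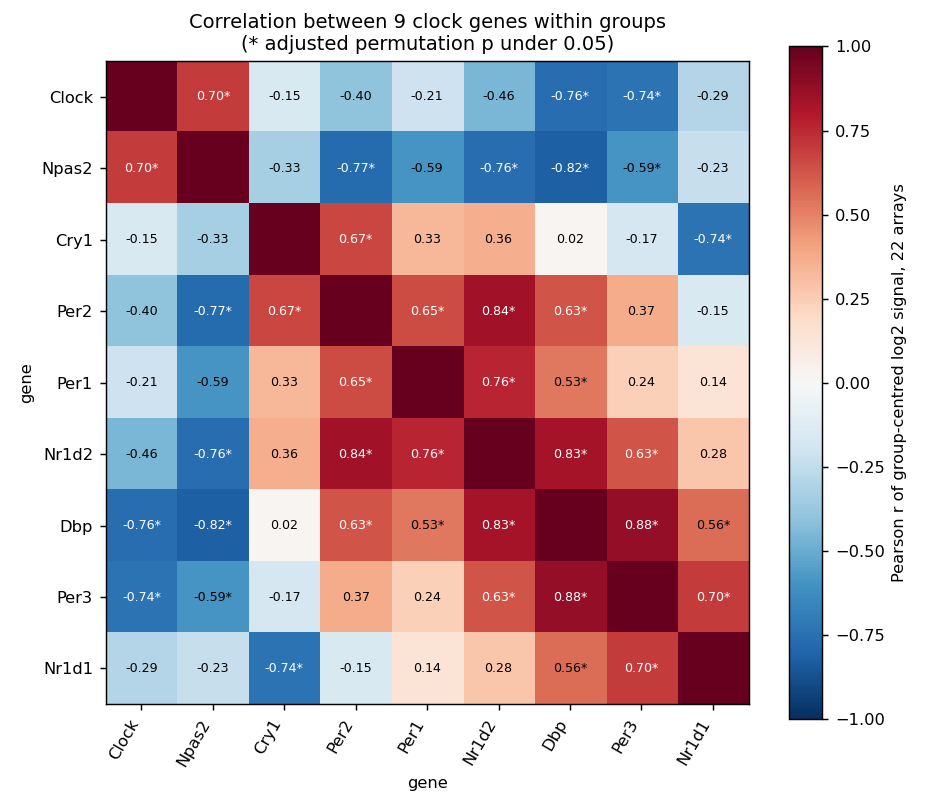
Pearson correlation (colour and number) between 9 clock genes (both axes) over 22 arrays with group means removed, with an asterisk where the permutation p adjusted over 45 pairs is under 0.05. Clock and Npas2 are negative with Dbp and Per3, and Cry1 is negative with Nr1d1 and near 0 with Dbp. Low signals of Npas2 may be background.

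These arrays are not fully independent, since arrays of the same replicate number within a genotype deviated together across all probe sets. When the 11 pairs of such arrays were averaged and the genotype mean removed, all 25 pairs of genes kept their sign. In an exact permutation test within genotypes, 1 of the 25, a pair with Arntl, had an adjusted p under 0.05. Of the 19 pairs without Arntl, 0 did, 12 had an unadjusted exact p under 0.05, and the adjusted exact p ran from 0.052 to 0.32, over 0.1 in 11 of them. Npas2 and Dbp had r = -0.90 (adjusted exact p = 0.052) there, and Cry1 and Nr1d1 r = -0.74 (adjusted exact p = 0.056). Low signals of Npas2 that may be background enter these means too. Nr1d2 and Dbp had r = 0.79 (adjusted exact p = 0.11), Clock and Npas2 r = 0.68 (adjusted exact p = 0.20), and Nr1d1 and Dbp r = 0.39 (adjusted exact p = 0.32). Without ERaKO placebo 1, an array of low Dbp and high Arntl, 14 pairs in place of 25 were under the threshold. With replicate number removed as well as group, as a replicate block, 19 pairs were.

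For single genes, the placebo and the E2 array of equal number were compared directly over the 11 pairs. Clock had r = 0.77 (exact permutation p = 0.03, adjusted over 10 genes 0.22) and rho = 0.78 (exact permutation p = 0.022), and r = 0.63 without the 2 farthest pairs. Cry1 had r = 0.76 (exact permutation p = 0.044, adjusted 0.22) and rho = 0.68 (exact permutation p = 0.097), and r = 0.52 without the 2 farthest. None of the 10 genes passed the adjustment, and Dbp had r = 0.27 (exact permutation p = 0.49) and rho = 0.25 (exact permutation p = 0.50).

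The genes most like Dbp across the 22 arrays with group means removed, among 10250 others, were in order Tef (r = 0.92), Tcap (0.92), Ciart (0.89), Ccdc85b (0.88) and Hlf (0.87). Tef and Hlf make up with Dbp the family of D-box activators, Ciart is a repressor of the loop and Tcap a gene of the muscle sarcomere. The most opposed was Nfil3, the repressor that competes for the D-box, at -0.94, followed by Leo1 (-0.91), Ablim3 (-0.83), Derl1 (-0.81) and Cct3 (-0.81). Leo1 exceeded 4 on 2 of 5 arrays in WT placebo, on 1 of 3 in ERaKO placebo and on none in the other groups. Nfil3 exceeded 4 on 2 of 5 arrays in WT E2 and on 0 of 3 in ERbKO placebo. The r values of Nfil3 and Leo1 thus include arrays near background and may rest largely on the others. Nfil3 was highest on the same 5 arrays on which Arntl exceeded 4, and it was 5.04 or less on the rest. These are descriptions over 22 arrays, ranked and so without a test.

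**Figure D5:**
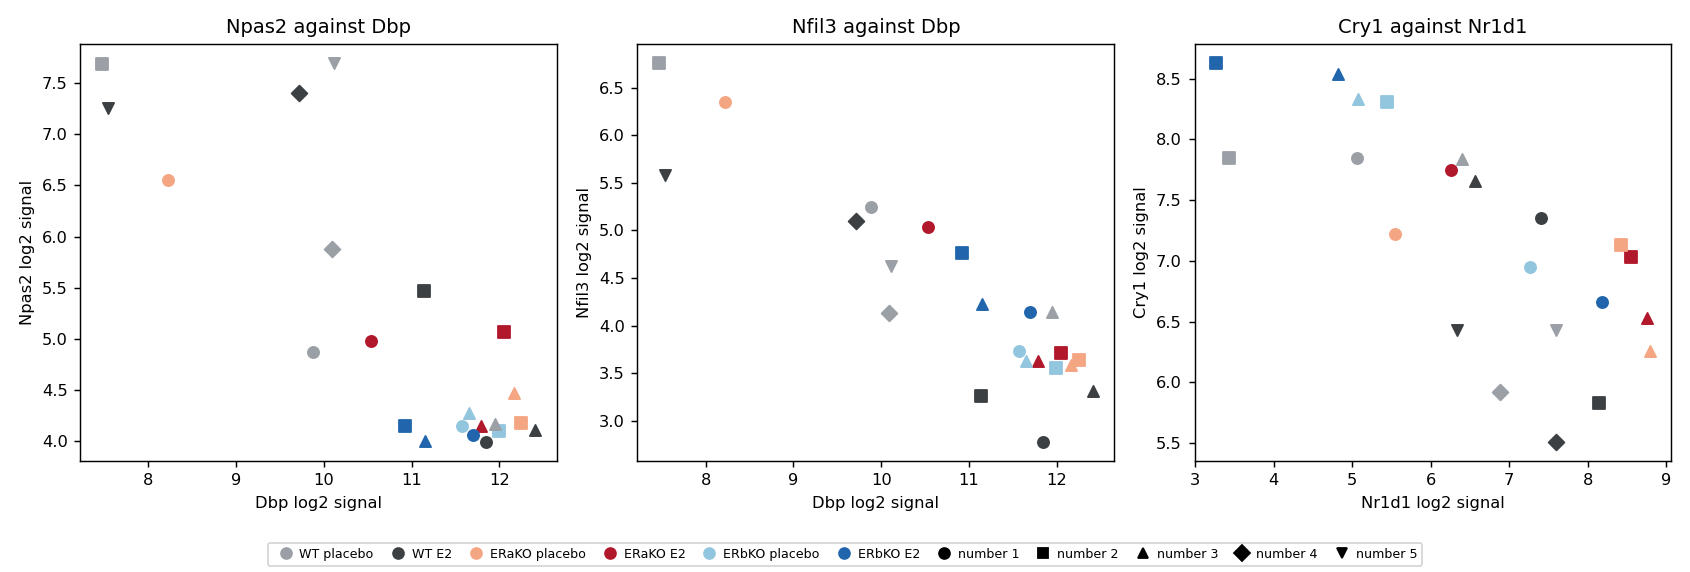
Log2 signal of Npas2 and Nfil3 against Dbp and of Cry1 against Nr1d1 (axes), 1 point per array, with colour for the group and shape for the replicate number. Arrays of one group spread along the whole diagonal in the Dbp panels, and the ERbKO arrays of low Nr1d1 carry the highest Cry1.

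Marker genes of the cell types of the vessel were set beside Dbp in the same way. Of 9 marker lists, 2 had an unadjusted permutation p under 0.05 and none an adjusted p under 0.05. The smooth muscle list had r = 0.51 with Dbp (permutation p = 0.036, adjusted p = 0.16) and rho = 0.50 (permutation p = 0.041), and r = 0.60 without the 2 farthest arrays. The brown adipocyte list, 6 of 6 markers measured, had r = -0.39 (permutation p = 0.033, adjusted p = 0.16) and rho = -0.43 (permutation p = 0.041), and r = -0.44 without the 2 farthest. The endothelial list had r = -0.47 (permutation p = 0.08, adjusted p = 0.24) and rho = -0.44 (permutation p = 0.078), and r = -0.64 without the 2 farthest. The other 6 lists (fibroblast, white adipocyte, skeletal muscle, macrophage, lymphocyte and erythroid) had r between -0.37 and 0.22, with adjusted permutation p from 0.32 to 0.68. The lymphocyte list had 2 of 5 markers tested, the erythroid 2 of 4, the white adipocyte 4 of 6 and the macrophage 4 of 5. Most skeletal muscle markers were under the filter, and lymphocyte signals lay near 4. A low r for such a list therefore says little of its cell type. The part of cell makeup in the spread of Dbp was not tested beyond these values.

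Of 25 further genes of the clock and its close targets, 23 have a probe set of their own on the array and 19 were tested. None was called in any contrast by limma, over 209 values with a lowest adjusted p of 0.31, and 14 of the 209 (6.70%) had an unadjusted p under 0.05. Cry2, the sister of Cry1, was 7.92 ± 0.41 in ERaKO placebo and 7.34 ± 0.24 in WT placebo, a difference of 0.58 ± 0.22 (SE) with an adjusted p of 0.96. With E2 the same difference was 0.59 ± 0.22, with an adjusted p of 0.50. Btrc, which encodes a ubiquitin ligase subunit that acts on PER proteins, differed by 0.43 ± 0.14 between ERaKO and WT with placebo (adjusted p = 0.96). It is named because its unadjusted limma p of 0.0057 was the lowest of the 209. The widest differences of these genes in that contrast were those of Hlf (0.89 ± 0.60) and Bhlhe40 (0.71 ± 0.48), each with an adjusted p of 0.96. Nfil3 was 4.98 ± 1.09 in WT placebo and 4.01 ± 1.25 in WT E2 (SD, n = 5 each), a difference of -0.98 ± 0.61 with an adjusted p of 0.72. On WT E2 arrays 1 to 3 it was 2.78, 3.26 and 3.31, near background, so the size of this difference is uncertain.

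Probe sets of the same gene did not always move alike. With group means removed, the 4 tested probe sets of Per3 correlated at 0.71 to 0.92 and the pair of Nr1d2 at 0.82. The 4 of Clock correlated at 0.09 to 0.83 and the 3 of Per2 at 0.38 to 0.68. Statements on Clock and Per2, and on the spread of Nr1d2, therefore hold for the probe set described.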

How the data were processed

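The authors deposited log2 expression values, 1 per probe set and array, of Affymetrix arrays processed with GCRMA, per the submitters' processing notes, which also name limma. GCRMA corrects background by probe sequence, so signals near 3 are background and hold no order. The authors' deposited table of p-values and log2 fold changes was matched by differences of group means to within 4.98e-08 and by unadjusted p-values to within 4.94e-08, which shows the scale to be log2.

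All 22 arrays entered a single limma 3.58.1 fit in R 4.3.3, with a mean for each of the 6 groups and no term for replicate number. The 64 control probe sets were left out, and 20410 probe sets with log2 signal over 4 on at least 3 arrays were tested. P-values are two-sided and adjusted by Benjamini-Hochberg per contrast over all of them, and values under 0.05 count as calls. The 11 contrasts are E2 minus placebo in each genotype, the knockouts against WT and against each other within a treatment, and the difference of the E2 effect in each knockout from that in WT. Intervals are 95% intervals of the fit. The number of arrays limits their precision. Fits and correlations were tested on simulated data.

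Symbols are those of the platform annotation, matched alone. Named genes are the 10 clock genes, values from 25 further clock genes, the 5 genes of highest and of lowest correlation with Arntl and with Dbp (those with Arntl are not given, as most of its arrays are at background), Esr1, Esr2 and marker lists. The members and lists were chosen with earlier results of these data known.

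The labels call arrays of a group biological replicates and number them, but do not say that equal numbers share a mouse line, litter or day. Across tested probe sets, the deviations of the E2 and the placebo array of equal number within a genotype correlated at 0.25 to 0.66 in all 11 pairs. The numbers were therefore taken to pair the samples in the alternatives, from the data and not from the labels. The main fit does not use this pairing, so its differences, intervals and adjusted p ignore it. Alternatives were other filters, normalisations, variance models, probe set summaries, blocks for replicate number and leaving out each array. Permutations used numpy 2.4.6.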

Additional observations from a re-analysis of the deposited data

How the results depend on the processing

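No clock gene was called in any of the 11 contrasts under any alternative. These were no filter, a filter at log2 6, quantile normalisation, median centring, a trended robust prior, only the arrays of the contrast, array weights, the mean of a gene's probe sets, a replicate block, a replicate block within genotype, and each of 22 arrays left out. The lowest adjusted p was 0.057, for Cry1 in ERbKO minus WT with E2 under array weights. Among the fits with a replicate block the lowest was 0.16, for Per2, E2 minus placebo in ERaKO, blocked within genotype. Neither block changed a call. At log2 6, 9 of the 10 genes were tested, without Arntl. Median centring moved arrays by -0.18 to 0.28. Of 1029 differences recomputed with all arrays kept 37 changed sign, the widest of them 0.78 in size, and of 2420 with 1 array left out 132 did.

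The count of 25 correlated pairs of clock genes was 1 over means of the 11 pairs of equal number, and 19 with a replicate block. It was 30 with the mean of a gene's probe sets and 23 under either normalisation. Leaving out 1 array gave 14 to 30, the lowest without ERaKO placebo 1. With numbers 1 to 3 only, an alternative chosen after seeing the data, it was 15. The cause of these falls was not tested; the first and the last use fewer values. No depth applies to arrays: what limits Arntl is its signal, over 4 on 5 arrays.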
